A study of Mus musculus with 28 samples.

Results

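The genes of de novo lipogenesis, the pathway that builds fatty acids from acetyl-CoA, were followed in liver and kidney of mice gavaged with nicotinamide mononucleotide (NMN), a precursor of NAD+. The set was a list of 10 genes of fatty acid synthesis (Thrsp, Srebf1, Fasn, Acly, Acaca, Acacb, Scd1, Elovl6, Me1 and Pnpla3), out of 54446 genes listed for every library. It was drawn up with earlier results of these data known, so its counts beside those of all genes are a description. All mice were male C57BL/6 mice (C57BL6J in the study's methods) aged 8 weeks, and all were gavaged for 7 days. The labels call the controls control. The study gavaged them with water on the same schedule. In the 1340 mg/kg/d schedule, with 1 gavage per day, 4 NMN mice and 4 water mice were sequenced for each organ. In the 2680 mg/kg/d schedule, with 2 gavages per day, 3 NMN mice and 3 water mice were sequenced for each organ. This made 28 libraries of polyA-selected RNA from whole organs. The schedules differed in dose and in the number of gavages, and each had its own water mice, so dose, handling and any sequencing batch cannot be told apart. The study used more than 1 kind of Illumina instrument, and which library ran on which is not given in the sources used here. A liver library at 1340 mg/kg/d had 12688324 to 16455228 reads on genes, and 1 at 2680 mg/kg/d had 17573184 to 20635269. A kidney library had 13174264 to 15696435 reads at 1340 mg/kg/d and 16358886 to 33872983 at 2680 mg/kg/d. In the liver of NMN replicate 4 at 1340 mg/kg/d, 29.3% of reads were in rows that name no gene, compared to 19.6 to 20.6% in the other 3 mice of its group, and results that change without it are given below. Markers of the organs matched the labels. Alb, the serum albumin of hepatocytes, stood at 99904 CPM (read counts relative to the library total, scaled by TMM over all 28 libraries) in the liver of water mice of the 1340 mg/kg/d schedule and at 61.3 CPM in their kidney. Kap, a protein of the kidney proximal tubule, stood at 15663 CPM in that kidney and at 35.00 CPM in that liver.

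De novo lipogenesis starts from citrate exported from mitochondria. Acly (ATP citrate lyase) splits citrate into acetyl-CoA and oxaloacetate, Acaca and Acacb (acetyl-CoA carboxylases alpha and beta) turn acetyl-CoA into malonyl-CoA, and Fasn (fatty acid synthase) builds palmitate from both with NADPH, part of which Me1 (cytosolic malic enzyme) supplies. Elovl6 lengthens palmitate to stearate and Scd1 (stearoyl-CoA desaturase) puts in the double bond that makes oleate. Srebf1 encodes SREBP-1, a transcription factor that switches the pathway on downstream of insulin. Thrsp (Spot 14) is a small acidic protein of lipogenic tissues whose gene follows carbohydrate feeding and thyroid hormone, and Pnpla3 is a lipid droplet protein whose gene is a target of the same factors. Liver and adipose tissue are the main sites of the pathway in mice.

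Per length of transcript, Scd1 was the most abundant of the 10 genes in the liver of water mice. Its level was 917 ± 297 RPKM (CPM per 1000 bases of exon, SD, n = 4) in the 1340 mg/kg/d schedule. Thrsp followed at 251 ± 92.1 RPKM. Srebf1 (81.01 ± 11.5 RPKM), Fasn (58.2 ± 18.2 RPKM), Acly (43.7 ± 10.4 RPKM) and Me1 (39.02 ± 8.81 RPKM) came next, and neighbours among these 4 had overlapping ranges of mean ± SD. Elovl6 (20.5 ± 6.92 RPKM), Acacb (8.15 ± 1.69 RPKM) and Acaca (4.74 ± 1.31 RPKM) were lower, in that order. Pnpla3 was the lowest, with 2 to 6 counts in a library. In the kidney of the same schedule Me1 led at 93.8 ± 13.2 RPKM (SD, n = 4), followed by Scd1 (36.2 ± 14.2 RPKM) and Acly (22.3 ± 4.49 RPKM). Thrsp was sixth there, at 4.47 ± 1.83 RPKM.

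In liver, 7 of the 9 genes with enough counts for a test were lower with NMN at 2680 mg/kg/d. Thrsp, Fasn, Scd1, Acacb, Acly, Elovl6 and Acaca fell, by 1.52 to 11.8 times, in 3 NMN mice compared to 3 water mice. Srebf1 and Me1 had lower estimates that did not pass the threshold (an adjusted p under 0.05, by the quasi-likelihood test of edgeR, adjusted over all genes tested by the Benjamini-Hochberg method), and Pnpla3 had too few counts. Across all 12477 genes tested, 4.03% fell and 7.08% changed in either direction. All 9 estimates were lower, beside 49.6% over all genes tested. With an adjusted p under 0.01 and a fold over 2, Thrsp, Fasn and Scd1 still passed, beside 0.729% of all genes tested. The median log2 fold change of the 9 genes was -1.03 beside 0.0045 over all genes tested.

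Thrsp had the largest fall of the set. Its level was 546, 490.1 and 413 CPM in the 3 water mice and 25.5, 69.3 and 29.9 CPM in the 3 NMN mice. Every NMN mouse lay far below every water mouse. The gene (ENSMUSG00000035686.8, chromosome 7, 97412938 to 97417730, minus strand of GRCm38) fell by 3.56 in log2 units (SE 0.35, edgeR adjusted p = 0.00205), which is 11.8 times.

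Among the enzymes that make malonyl-CoA, Acacb moved most. Its level was 114, 112 and 148 CPM in water mice and 15.7, 44.9 and 23.8 CPM in NMN mice, and the groups did not overlap. Acacb, the carboxylase at the mitochondrial outer membrane whose malonyl-CoA restrains fatty acid import, fell by 2.17 in log2 units (SE 0.33, edgeR adjusted p = 0.01). Acaca, the cytosolic carboxylase of the synthesis pathway itself, was at 112, 118 and 119 CPM in water mice and at 70.1, 82.6 and 77.8 CPM in NMN mice. The 3 water mice lay close together and all above the NMN mice, and the fall of 0.60 (standard error 0.14, adjusted p = 0.0259) was the smallest among the 7. Acaca lost its call in 5 of the 6 fits that left out 1 library (all but NMN replicate 2), with an adjusted p of up to 0.103. Acly, which supplies the acetyl-CoA, was at 421, 273 and 449 CPM in water mice and at 176, 191 and 195 CPM in NMN mice. The NMN mice were tightly grouped and below the lowest water mouse, and the log2 fold change was -1.03 (adjusted p = 0.0118).

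Fasn was at 1050.0, 1073 and 958 CPM in water mice and at 261, 401 and 169 CPM in NMN mice. The highest NMN mouse had less than the lowest water mouse by a wide margin, and Fasn fell by 1.90 in log2 units (SE 0.25, edgeR adjusted p = 0.00404). Scd1 was at 11649, 7877 and 12623 CPM in water mice and at 4630.4, 3730.4 and 4403 CPM in NMN mice. It remained the most abundant of the 10 genes per length in NMN mice, at 869.7 ± 95.7 RPKM (SD, n = 3), while its log2 fold change was -1.33 (standard error 0.19, adjusted p = 0.00404). Scd1 has paralogs of similar sequence, and how reads that match more than 1 of them were counted was not checked. Elovl6 was at 139, 120.0 and 156 CPM in water mice and at 46.3, 79.5 and 78.2 CPM in NMN mice. These groups did not overlap either, and the log2 fold change was -1.03 (adjusted p = 0.0152). Without NMN replicate 3 the adjusted p of Acacb was 0.0514, and without water replicate 3 that of Elovl6 was 0.0523.

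The regulator and the NADPH supplier did not pass the threshold. Srebf1 was at 571, 856 and 436 CPM in water mice and at 383, 247 and 320.2 CPM in NMN mice. All 3 NMN mice lay below all water mice, but the water mice were widely spread, and the log2 fold change of -0.96 had an adjusted p of 0.0549 (edgeR). DESeq2 gave Srebf1 an adjusted p of 0.00258. Its exons share bases with Rai1 on the other strand, and counting ignored strand. Me1 was at 196, 156 and 305 CPM in water mice and at 61.4, 124 and 176 CPM in NMN mice. The groups overlapped, and the log2 fold change was -0.87 (95% interval -1.83 to 0.08, adjusted p = 0.241). In all, 8 of the 10 genes had every NMN mouse below every water mouse, while 14.6% of all genes tested did so. Pnpla3 had 4 to 8 counts in the water mice and 0 to 11 in the NMN mice.

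**Figure D1:**
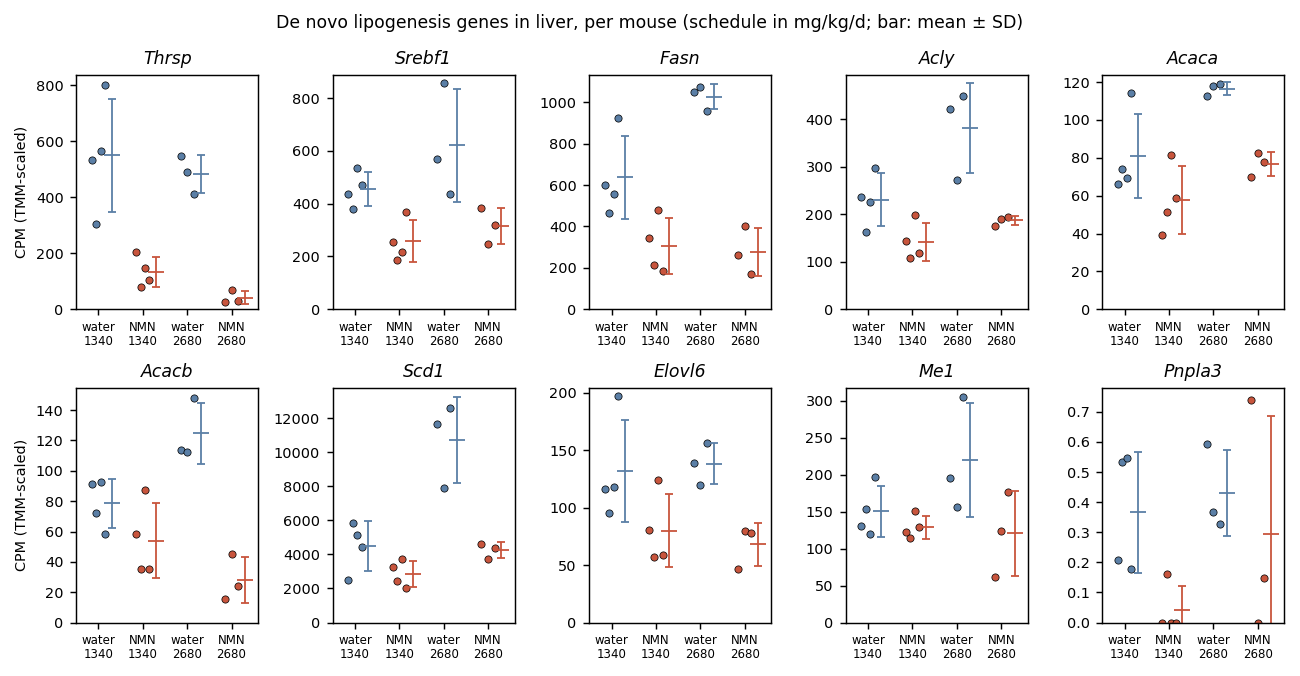
Levels of the 10 lipogenesis genes in the liver of each mouse, in CPM on linear axes that start at 0, by group on the horizontal axis (mg/kg/d). Points are mice (blue for water, red for NMN) and the bars beside them the mean ± SD (4 mice per group at 1340 mg/kg/d, 3 at 2680 mg/kg/d). At 2680 mg/kg/d the NMN points lie below all water points for 8 genes, while Me1 overlaps and Pnpla3 is near 0.

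Some hepatocyte markers and Car3 moved with this comparison. Among 6 hepatocyte markers, 2 were lower in NMN mice at 2680 mg/kg/d, beside 4.03% of all genes tested in this direction. These were Ttr (log2 fold change -0.97, adjusted p = 0.00227 from edgeR) and Serpina1c (-0.58, adjusted p = 0.0196). The 6 markers summed to 235079, 224223 and 207947 CPM in water mice and to 151131, 183160 and 177486 CPM in NMN mice, and Alb was the most abundant. Of 9 adipocyte markers 3 could be tested and Car3, which hepatocytes also express, was lower (-1.36, adjusted p = 0.0118), beside the same 4.03%. Car3 made up nearly all of the adipocyte sum, which was 6029, 6177 and 5721 CPM in water mice and 1376, 2858 and 2850.1 CPM in NMN mice. Lep, Retn and Ucp1 were at 0 in all 6 livers, Plin1 had at most 3 counts and Adipoq at most 5. The 7 kidney tubule markers summed to 1.86, 14.1 and 2.55 CPM in water mice and to 46.1, 2.56 and 2.37 CPM in NMN mice, with Kap the most abundant. NMN replicate 1 carried the most of them, and without it 7 lipogenesis genes passed as well, with Srebf1 in place of Acaca. None passed among the markers that could be tested of adrenal cortex (1 of 5), cholangiocytes (3 of 3), leukocytes (4 of 5), erythroid cells (4 of 4) and stellate cells and fibroblasts (4 of 4), and no marker of podocytes or exocrine pancreas had enough counts. At 1340 mg/kg/d no tested marker of any list passed. The part of the hepatocyte and Car3 changes in the fall was not tested. In whole organs, fewer cells of a type and less RNA per cell cannot be told apart.

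The start regions of 3 enzymes that fell together are shown here, those of Acly, Acacb and Fasn. RefSeq windows of 300 bases around annotated transcript starts (250 before and 50 after, build GRCm38.p6) were found for 9 of the 10 genes, with 12 windows. Scd1 had none. The 250 bases before the start are given 5′ to 3′ on the gene's strand. Capitals mark every CCAAT (the CCAAT box, the motif of NF-Y) and every GGGCGG (the GC box, the motif of Sp1), or their reverse complements, and only Fasn has boxes that overlap. Acly lies at chr11:100528001-100528250 (minus strand), Acacb at chr5:114165268-114165517 (plus strand) and Fasn at chr11:120824548-120824797 (minus strand). The Acly and Fasn stretches lie just before the first exon of the gene. The Acacb stretch lies almost wholly in the first intron of the longer GENCODE transcript.
Acly: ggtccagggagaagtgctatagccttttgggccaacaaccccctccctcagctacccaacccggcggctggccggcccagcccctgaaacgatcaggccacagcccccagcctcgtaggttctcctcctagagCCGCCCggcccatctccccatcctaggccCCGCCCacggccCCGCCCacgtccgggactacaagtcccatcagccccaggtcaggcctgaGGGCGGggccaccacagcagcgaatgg
Acacb: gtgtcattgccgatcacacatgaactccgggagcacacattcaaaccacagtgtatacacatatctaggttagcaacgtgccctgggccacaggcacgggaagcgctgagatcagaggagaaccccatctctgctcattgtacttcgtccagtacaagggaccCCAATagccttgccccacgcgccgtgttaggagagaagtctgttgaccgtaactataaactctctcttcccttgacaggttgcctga
Fasn: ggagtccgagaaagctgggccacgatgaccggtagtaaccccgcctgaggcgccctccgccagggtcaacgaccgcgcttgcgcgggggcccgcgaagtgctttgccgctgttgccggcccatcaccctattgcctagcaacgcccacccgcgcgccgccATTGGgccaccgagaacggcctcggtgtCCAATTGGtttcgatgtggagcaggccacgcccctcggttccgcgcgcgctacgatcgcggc
Counted from the transcript start, CCAAT boxes began at -90, -62 and -59 in Fasn and at -87 in Acacb, and GC boxes at -117, -88, -76 and -27 in Acly. The Thrsp window held CCAAT boxes at -79 and -52, which lie within the first exon of a longer GENCODE transcript. Over the whole windows and both strands, 7 of the 9 genes held a CCAAT box, beside 41.1% of 27025 genes with a window. A GC box was in 4 of 9, beside 38.2%. The sterol regulatory element searched (TCACNCCAC) was in none of the 9, beside 1.44%, and the E-box CACGTG was in none, beside 8.09%. A match is only a run of letters, and a missing match says only that these letters were not in the window.

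In liver all 9 tested genes had lower estimates at 1340 mg/kg/d and none passed the threshold. The log2 fold changes ran from -2.04 for Thrsp to -0.21 for Me1, with a median of -0.69 beside -0.0027 over all genes tested. Over all genes tested 0.0161% passed, and 50.5% had a lower estimate. An unadjusted p under 0.05 was reached by 6 of the 9 (Thrsp, Srebf1, Fasn, Acly, Scd1 and Elovl6), beside 3.34% of all genes tested in this direction. DESeq2 called 3 of them (Thrsp, Srebf1 and Fasn), beside 0.225% of all genes it tested in this direction. Without NMN replicate 4, edgeR called Srebf1 (adjusted p = 0.0240) and none of the other 8. Over all genes tested 18 passed without that library, compared to 2 with it.

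Thrsp was again the gene with the largest difference. It was at 533, 306, 564 and 799 CPM in the 4 water mice and at 203, 80.2, 146 and 106 CPM in the 4 NMN mice. No NMN mouse reached the lowest water mouse, and the mean in NMN mice was 134 ± 53.3 CPM compared to 550.5 ± 202 CPM (SD, n = 4 each). The log2 fold change was -2.04 (standard error 0.35, 95% interval -2.83 to -1.25), with an adjusted p of 0.132 in edgeR and of 7.14e-09 in DESeq2. Srebf1 was at 436, 382, 536 and 472 CPM in water mice and at 255, 186, 218 and 369 CPM in NMN mice. The highest NMN mouse came close to the lowest water mouse without reaching it, and the adjusted p was 0.336. These were the tested genes whose groups did not overlap, beside 1.74% of all genes tested in this direction. Fasn was at 601, 464, 559 and 924 CPM in water mice and at 347, 214, 479 and 187 CPM in NMN mice. NMN replicate 3 stood above the lowest water mouse, as it also did for Acly, Acaca, Acacb and Elovl6. Scd1 was at 2486, 5854, 5149 and 4455 CPM in water mice and at 3256, 2426, 3735 and 2029 CPM in NMN mice. Here water replicate 1 lay among the NMN mice. Acly had a log2 change of -0.69, Elovl6 of -0.71, Acacb of -0.54 and Acaca of -0.47, with adjusted p between 0.462 and 0.798. Pnpla3 had 2 to 6 counts in the water mice and 0 to 2 in the NMN mice.

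The difference between the schedules was tested over the 14 liver libraries. None of the 9 genes passed, beside 0.0746% of all genes tested (10 genes), although all 9 estimates were lower at 2680 mg/kg/d, beside 48.4% over all genes tested. Acacb had the smallest p, with a difference of log2 fold changes of -1.62 (95% interval -2.69 to -0.55, adjusted p = 0.354 from edgeR and 0.0376 from DESeq2). For Thrsp the difference was -1.50 (95% interval -2.71 to -0.30, adjusted p = 0.45), for Fasn -0.84 (-1.86 to 0.18) and for Srebf1 -0.13 (-0.90 to 0.63). An unadjusted p under 0.05 was reached by 2 genes, Thrsp and Acacb, beside 4.57% of all genes tested in this direction. For the other 7 genes the intervals included 0. In kidney the same test called none of the 10 genes, beside 0.00625% of all genes tested (1 gene).

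The pathway around the 10 genes was described with 6 lists of genes, by role. Of 13 genes of transcriptional control none passed in liver at 2680 mg/kg/d, beside 7.08% of all genes tested in either direction. Their median log2 fold change was 0.015. The smallest p there was that of Nr1h3, which encodes the oxysterol receptor LXR alpha, an activator of Srebf1, at 165 ± 21.4 CPM in water mice and 121 ± 14.8 CPM in NMN mice (SD, n = 3 each, log2 fold change -0.44, adjusted p = 0.0952). Of 11 genes that supply citrate, acetyl-CoA and NADPH none passed and the median was -0.43. Lower estimates were found for 9 of them, beside 49.6% over all genes tested. Pgd, a dehydrogenase of the pentose phosphate pathway that makes NADPH, came nearest at 63.4 ± 15.8 and 37.4 ± 9.86 CPM (log2 fold change -0.77, adjusted p = 0.0518).

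Among 9 genes that control acetyl-CoA carboxylase, 1 fell, beside 4.03% of all genes tested. Mid1ip1, a relative of Thrsp whose protein promotes the polymerization of acetyl-CoA carboxylase, was at 118 ± 21.9 CPM in water mice and 63.8 ± 15.4 CPM in NMN mice (SD, n = 3 each, log2 fold change -0.89, adjusted p = 0.0202 from edgeR). It shares exon bases with Gm14493 on the other strand. The list also holds the subunits of AMP-activated kinase and its activator Stk11, none of which passed, and its median was 0.13. None of 10 other genes of elongation and desaturation passed (median -0.22). The smallest p was that of Tecr, the last reductase of the elongation cycle, with a log2 fold change of -0.48 (adjusted p = 0.0722).

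Of 12 tested genes of acyl-CoA ligation and glycerolipid assembly, 2 rose and 1 fell, beside 3.05% and 4.03% of all genes tested. Lpin2, a phosphatidate phosphatase that makes diacylglycerol, rose from 137 ± 43.9 CPM to 563 ± 202 CPM (log2 fold change 2.02, adjusted p = 0.0105). Acsl3, an acyl-CoA synthetase, rose from 32.1 ± 8.83 to 56.7 ± 9.84 CPM (adjusted p = 0.0421), and its relative Acsl5 fell from 764 ± 105 to 490.3 ± 125 CPM (adjusted p = 0.0495). Of 9 lipid droplet and lipolysis genes 1 rose, beside the same 3.05%. In lists this short, 1 or 2 genes past the threshold describe those genes and not the list. Plin4, a lipid droplet coat protein, went from 1.304 ± 0.547 to 15.6 ± 6.78 CPM (log2 fold change 3.55, adjusted p = 0.00181). The medians of these 2 lists were 0.10 and 0.22.

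No gene of the 6 lists passed in liver at 1340 mg/kg/d. The values of Plin4, Mid1ip1, Lpin2, Pgd, Nr1h3 and Tecr lay on the same side of 0 as at 2680 mg/kg/d, while those of Acsl3 (-0.44) and Acsl5 (0.14) lay on the other. Plin4 had a log2 change of 2.97 (adjusted p = 0.0659), Mid1ip1 of -1.12 (adjusted p = 0.462), Lpin2 of 0.69, Pgd of -0.42 and Nr1h3 of -0.33. Elovl1, an elongase of very long saturated chains, had the smallest p of its list, with a log2 fold change of -0.57 (adjusted p = 0.508).

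**Figure D2:**
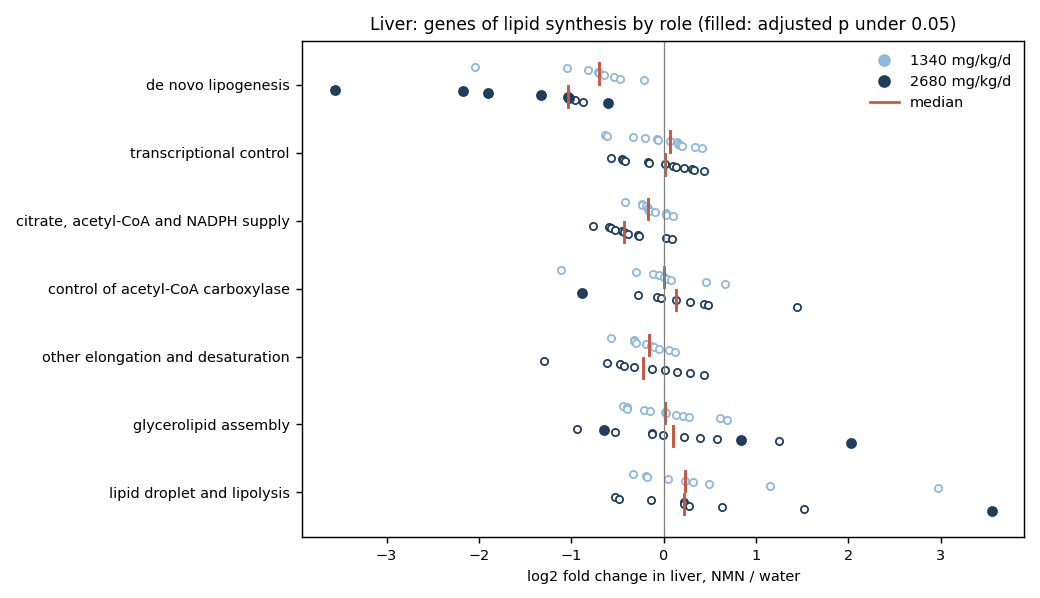
Log2 fold change of NMN over water in liver for each tested gene (horizontal axis), by list of genes on the vertical axis, at 1340 mg/kg/d (light) and 2680 mg/kg/d (dark). Filled points passed an adjusted p of 0.05 and the red ticks are the medians of each list. The de novo lipogenesis genes lie wholly below 0 at both schedules, with medians of -0.69 and -1.03, while the other lists spread to both sides.

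In kidney no lipogenesis gene passed the threshold under NMN at either schedule. At 1340 mg/kg/d 0 of 10 genes were called, beside 0.12% of all genes tested, and the smallest adjusted p was 0.589, that of Srebf1 (edgeR, no gene had an unadjusted p under 0.05 and DESeq2 also called 0). Leaving out each library in turn also gave 0 of 10, although the estimates moved. The log2 fold change of Thrsp was -0.53 and ran from -1.54 (without NMN replicate 3) to -0.27. That of Fasn was -0.33 and ran from -0.89 (without the same library) to -0.04. At 2680 mg/kg/d 0 of 10 were called, beside 0.4% of all genes tested. Me1 had the smallest p there and the only unadjusted p under 0.05, beside 11.1% of all genes tested in either direction. It was at 340.0, 379 and 406 CPM in the 3 water mice and at 300.3, 322 and 303 CPM in the 3 NMN mice. The groups did not overlap, as for 8.39% of all genes tested in this direction, and the log2 fold change was -0.29 (standard error 0.09, adjusted p = 0.247). The NMN kidneys of this schedule were all sequenced more deeply than the water kidneys. The reverse held at 1340 mg/kg/d.

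The kidney values of Thrsp were uneven, and at 1340 mg/kg/d they were low. They were 13.1, 9.61, 4.202 and 12.3 CPM in the water mice and 3.495, 3.89, 16.8 and 2.702 CPM in the NMN mice at 1340 mg/kg/d. NMN replicate 3 was the highest of all 8 kidneys and the other 3 NMN mice the lowest. At 2680 mg/kg/d they were 56.3, 60.8 and 81.2 CPM in water mice and 51.1, 73.1 and 127 CPM in NMN mice, with the NMN mice on both sides of the water mice. The 95% intervals of the log2 fold change were -2.22 to 1.16 and -0.72 to 1.41, so they include changes of more than 2 times. For Acacb they were narrower, -0.13 to 0.39 and -0.02 to 0.48. For Fasn they were -1.49 to 0.84 and -0.79 to 1.27, and for Scd1 -0.29 to 1.57 and -0.71 to 1.34. In the 6 pathway lists 1 gene passed in kidney at 2680 mg/kg/d, beside 0.4% of all genes tested in either direction. None passed at 1340 mg/kg/d, beside 0.12%. A call of 1 gene describes that gene and not its list. Elovl2, an elongase of long polyunsaturated chains, fell from 25.4 ± 3.06 to 15.8 ± 1.97 CPM at 2680 mg/kg/d (SD, n = 3 each, adjusted p = 0.0342). The gene with the smallest p of each other list had a log2 change of 0.30 (Scap, the escort of SREBPs), 0.29 (Pgls), -0.20 (Mid1ip1), 0.52 (Gpam, the first acyltransferase of glycerolipid synthesis, adjusted p = 0.06197) and 0.49 (Pnpla2, adipose triglyceride lipase). At 1340 mg/kg/d such genes were the coactivator Ppargc1b (-0.37), the NADPH-making Idh1 (-0.30), the malonyl-CoA decarboxylase Mlycd (-0.15), Elovl2 (-0.22), the acyltransferase Agpat2 (-0.28) and the lipid droplet protein Plin2 (-0.25), with adjusted p from 0.385 to 0.682.

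**Figure D3:**
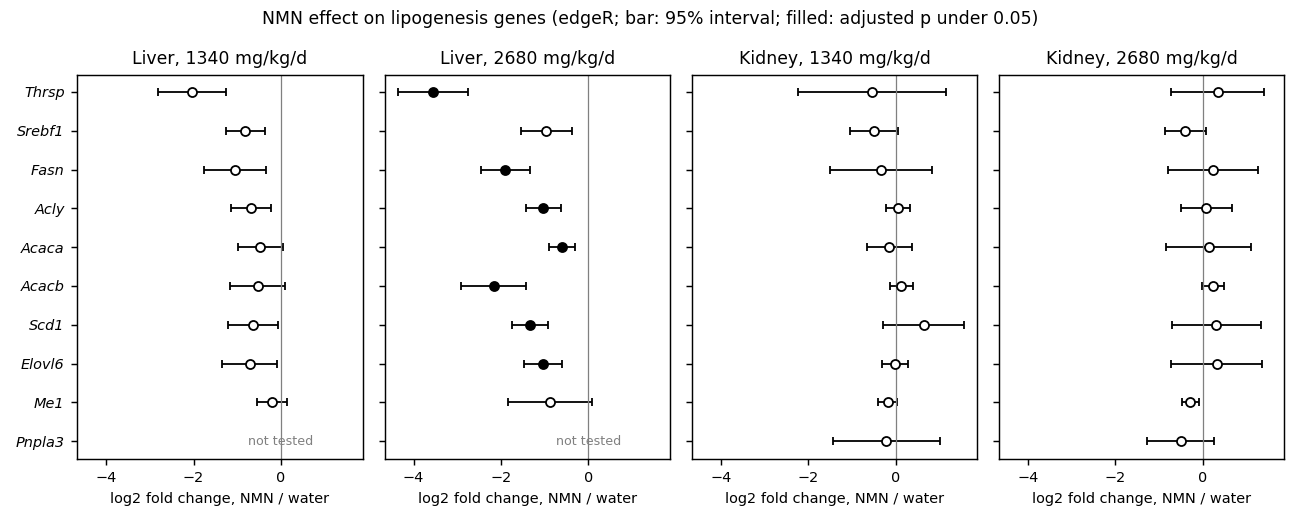
Log2 fold change of NMN over water (horizontal axis) for each lipogenesis gene (vertical axis) in the 4 comparisons, with 95% intervals from edgeR. Filled points passed an adjusted p of 0.05, and Pnpla3 was not tested in liver. The 7 filled points are all in the liver at 2680 mg/kg/d, where Thrsp lies at -3.56, and in the kidney panels the points lie on both sides of 0.

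The effect of NMN differed between the organs for 4 genes at 2680 mg/kg/d. The difference of log2 fold changes (liver minus kidney) was -3.91 for Thrsp (95% interval -5.09 to -2.73, adjusted p = 0.00573 from edgeR), -2.41 for Acacb (adjusted p = 0.00653), -2.15 for Fasn (adjusted p = 0.0333) and -1.66 for Scd1 (adjusted p = 0.0471). Over all genes tested 1.6% passed in this direction and 2.65% in either. Leaving out 1 library at a time gave 2 to 5 genes, with 2 in 6 of the 12 fits. Fasn lost its call in 7 of the 12 fits and Scd1 in 8 of the 12, while Thrsp and Acacb kept theirs in all 12. Under a replicate block 5 genes passed, without Fasn (adjusted p = 0.119) and with Acly and Elovl6 (adjusted p = 0.0483 and 0.0130). The block takes same-numbered organs as 1 mouse, which the sources do not state. Their deviations from the group means had r of 0.113 to 0.284 in the water mice and of -0.033 to 0.0644 in the NMN mice. Acly (-1.12, adjusted p = 0.0632) and Elovl6 (-1.36, adjusted p = 0.0894) came near the threshold. Of the 6 pathway lists, Lpin2 and Plin4 had a higher fold change in liver (adjusted p = 0.0136 and 0.0384) and Pgls, a lactonase of the pentose phosphate pathway, a lower one (adjusted p = 0.039). At 1340 mg/kg/d none of the 10 genes passed, and none of all 15614 genes tested did. The difference was -1.52 for Thrsp (95% interval -3.23 to 0.20, adjusted p = 0.899) and -1.30 for Scd1 (-2.27 to -0.32, adjusted p = 0.716). Without NMN replicate 3 of the kidneys that of Thrsp was -0.51. Acly and Scd1 had an unadjusted p under 0.05 there, beside 2.72% of all genes tested in this direction, and DESeq2 called 0 of the 10.

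Without NMN, 8 of the 10 genes were higher in liver than in kidney in both schedules, beside 30.2% and 28.8% of all genes tested in this direction. These were all but Me1 and Pnpla3. In the 1340 mg/kg/d schedule the log2 difference was 5.84 for Thrsp (adjusted p = 3.69e-06 from edgeR), 4.69 for Scd1 (adjusted p = 1.19e-08) and 3.29 for Srebf1 (adjusted p = 5.09e-10), and it was smallest for Acly (1.00, adjusted p = 9.75e-05). In the 2680 mg/kg/d schedule the same genes differed by 2.86, 3.53, 3.63 and 0.89. Me1 was lower in liver in both (-1.24 and -0.78, adjusted p = 1.86e-07 and 0.03703), beside 36.1% and 40.3% of all genes tested in this direction, although the second call was lost in 5 of the 12 fits that left out 1 library. Pnpla3 was lower in liver at 2680 mg/kg/d (-3.71, adjusted p = 8.96e-05) and did not pass at 1340 mg/kg/d (-1.16, adjusted p = 0.157). At 2680 mg/kg/d it had 4 to 8 counts in the water livers and 103 to 147 in the water kidneys. It had too few counts for a test in liver alone and entered these fits through the kidneys, so its call is a description. The scaling assumes that most genes do not differ, while 66.3% and 69% of genes passed between the organs.

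The kidneys of the 2 schedules differed in these genes without any NMN. In water mice 7 of the 10 were higher at 2680 than at 1340 mg/kg/d, beside 7.05% of all genes tested in this direction (17.3% in either). Thrsp rose from 9.78 ± 4.001 CPM in 4 mice to 66.1 ± 13.3 CPM in 3 mice (mean ± SD). Its log2 difference was 2.73 (adjusted p = 0.0109 from edgeR). Pnpla3 rose from 0.849 ± 0.3401 to 5.71 ± 1.14 CPM (adjusted p = 0.00193), Scd1 from 177 ± 69.5 to 922 ± 293 CPM (adjusted p = 0.00324), Fasn from 110.3 ± 42.3 to 457 ± 117 CPM (adjusted p = 0.0147) and Acaca from 19.9 ± 5.28 to 62.6 ± 12.01 CPM (adjusted p = 0.00567). Acly and Acacb rose by less (0.77 and 0.64 on the log2 scale). Srebf1 (0.04) and Me1 (0.03) had differences near 0, and Elovl6 did not pass (0.80, adjusted p = 0.0652). Fasn and Acly lost their calls without water replicate 3 of the 2680 mg/kg/d schedule (adjusted p = 0.0595 and 0.0621). In liver the same comparison called 1 of 9 genes, beside 1.74% of all genes tested in this direction (5.39% in either). Scd1 rose from 4486 ± 1451 to 10716 ± 2507 CPM (adjusted p = 0.0126), and not without water replicate 3 (adjusted p = 0.0658).

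Markers of adipocytes and other cells moved with the kidney difference. Of 9 adipocyte markers 6 were higher in water kidneys at 2680 mg/kg/d, beside 7.05% of all genes tested in this direction. Within the kidneys at 1340 mg/kg/d only 6 of the 9 had enough counts for a test, and at 2680 mg/kg/d all 9 had. The others entered this comparison through the schedule where they are higher, so the count is a description. Adiponectin (Adipoq) rose from 2.91 ± 2.42 to 26.2 ± 5.29 CPM (adjusted p = 0.0294), adipsin (Cfd) from 11.8 ± 9.29 to 90.9 ± 6.03 CPM (adjusted p = 0.0309), and Fabp4, Lep, Retn and Car3 passed as well. Plin1 (adjusted p = 0.0586), Adrb3 (0.0597) and Ucp1 (0.127), the uncoupling protein of brown fat, did not. The 9 markers summed to 169, 117, 97.7 and 207 CPM in the water kidneys and to 62.9, 97.6, 228 and 72.4 CPM in the NMN kidneys at 1340 mg/kg/d. At 2680 mg/kg/d they summed to 501, 601 and 762 CPM in water and 442, 718 and 874 CPM in NMN kidneys. Every kidney at 2680 mg/kg/d was above every kidney at 1340 mg/kg/d, and the most abundant of the markers in water kidneys was Car3. Lep, which encodes the fat hormone leptin, had 0 to 4 counts in the kidneys at 1340 mg/kg/d and 28 to 53 in the water kidneys at 2680 mg/kg/d. The share of counts from mitochondrial genes also differed, 9.71% and 20.6% on average in water kidneys at 1340 and 2680 mg/kg/d. Hepatocyte markers differed too. Of 6, Alb, Apoa1, Tat and Serpina1c were lower at 2680 mg/kg/d and Cyp2e1 was higher. Over all 15989 genes tested 1632 were lower and 1127 higher. Alb fell from 61.3 ± 9.22 to 8.404 ± 0.908 CPM (adjusted p = 2.74e-06). The 6 summed to 1399.8, 1068, 1162 and 1445 CPM in the water kidneys at 1340 mg/kg/d and to 1753, 1787 and 1838 CPM at 2680 mg/kg/d, with Cyp2e1, which kidney also expresses, the most abundant. Of the markers of other cells, Aqp2 (collecting duct) and Epcam (epithelium) were lower and Dcn (fibroblasts) was higher. In the water livers Alb, Fabp4 and Car3 were higher at 2680 mg/kg/d, and the tubule markers Slc34a1 and Slc12a1 were lower. The tubule markers summed to 54.4 to 59.9 CPM in the water livers at 1340 mg/kg/d and to 1.86 to 14.1 CPM at 2680 mg/kg/d. The part of these markers and of the mitochondrial share in the differences between schedules was not tested.

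Across the 14 kidney libraries the level of 8 lipogenesis genes ran with the adipocyte sum. Pearson's r on log2 CPM was 0.989 for Thrsp, 0.978 for Fasn, 0.962 for Acaca, 0.944 for Pnpla3, 0.922 for Acacb, 0.903 for Elovl6, 0.877 for Scd1 and 0.865 for Acly. For Srebf1 it was 0.128 and for Me1 0.058. These are descriptions, since the schedules form separate groups and the libraries of a schedule have similar mitochondrial shares. Within the 8 libraries at 1340 mg/kg/d r was 0.938 for Thrsp and 0.868 for Fasn, between 0.752 and 0.769 for Acaca, Elovl6 and Pnpla3, 0.551 for Acacb, 0.212 for Acly and 0.109 for Scd1, and -0.00417 for Srebf1 and 0.0563 for Me1. Within the 6 at 2680 mg/kg/d it was 0.959 for Scd1, 0.921 for Thrsp and 0.903 for Fasn, between 0.862 and 0.878 for Acaca, Acly and Elovl6, 0.723 for Acacb and 0.678 for Pnpla3, and -0.364 for Srebf1 and 0.173 for Me1. NMN replicate 3 at 1340 mg/kg/d had the highest sum of its schedule (227.7 CPM) and the highest Thrsp. None of the adipocyte markers tested in kidney (6 at 1340 and 9 at 2680 mg/kg/d) passed in NMN against water. Over all 14 livers Lep and Ucp1 were at 0, and Plin1 had at most 3, Adipoq 5, Retn 7 and Cfd 29 counts, while Fabp4, Adrb3 and Car3 had enough counts for a test in every liver fit, and Cfd in the fits over all 14 livers.

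**Figure D4:**
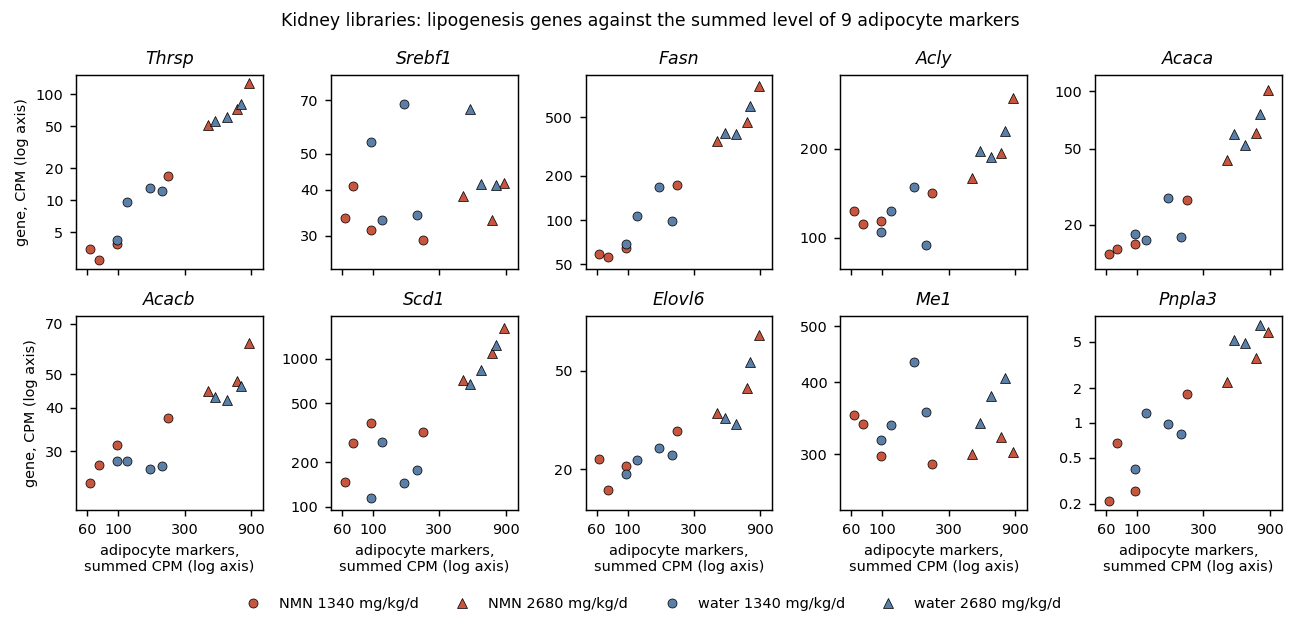
Level of each lipogenesis gene in kidney (CPM, log axis) against the summed level of 9 adipocyte markers (CPM, log axis) in the 14 kidney libraries. Circles are mice of the 1340 mg/kg/d schedule, triangles of the 2680 mg/kg/d schedule, blue is water and red is NMN. For 8 genes the points rise together, from r = 0.865 for Acly to 0.989 for Thrsp, and Srebf1 and Me1 show no such rise.

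Within liver the genes differed in how closely they ran with the rest. Over the 14 liver libraries, with log2 CPM centred within each schedule, Thrsp had the highest correlation with the mean of the other 8 tested genes (Pearson's r = 0.952). Fasn (0.938), Elovl6 (0.917), Acly (0.916) and Acacb (0.874) followed. Scd1 (0.796), Acaca (0.772), Me1 (0.666) and Srebf1 (0.642) were lower. With log2 CPM centred within each of the 4 groups, so that the NMN effect was taken out, the order changed. Elovl6 had the highest r (0.935), followed by Acly (0.766), Fasn (0.695), Thrsp (0.651), Acacb (0.545), Acaca (0.487), Me1 (0.386) and Scd1 (0.190), and that of Srebf1 was negative (-0.363). These values have no test, and whether the libraries of a schedule were processed together is not given in the sources used here.

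Outside the set and the lists, the 5 genes whose log2 CPM, centred within each schedule, ran most closely with the mean of the 9 genes over the 14 liver libraries were Gstp3 (r = 0.949), Rpl22l1 (0.927), Tmie (0.923), Pklr (0.923) and Hcn3 (0.918). With values centred within each of the 4 groups r was lower, 0.546 (Hcn3) to 0.673 (Pklr). Pklr encodes the liver pyruvate kinase, the last enzyme of glycolysis. Its level was 314 ± 81.1 CPM in water mice and 34.9 ± 19.7 CPM in NMN mice at 2680 mg/kg/d (SD, n = 3 each). At 1340 mg/kg/d it was 194 ± 55.3 CPM in water mice and 103 ± 40.6 CPM in NMN mice (SD, n = 4 each). Hcn3 runs into the end of Pklr on the other strand, and counting ignored strand. Gstp3, a glutathione transferase, was at 18.4 ± 2.95 CPM in water mice and 3.54 ± 1.06 CPM in NMN mice at 2680 mg/kg/d. The genes were picked for this likeness, so their values are a description.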

How the data were processed

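Reads were aligned by the authors with STAR and assigned to genes by HTSeq-count (strict intersection, strand ignored), and they deposited raw counts for 54446 genes. The build they name, mm19, is not a known mouse build. HTSeq rows naming no gene (18.6 to 29.3% of a library) were left out. From the deposited counts, each comparison was fitted with edgeR 4.0.16 in R 4.3.3 (filterByExpr, TMM scaling, robust quasi-likelihood), without covariates, and p-values were adjusted over all genes tested. NMN was compared with water within an organ and schedule. Interactions and comparisons of water mice used the 4 groups of an organ or schedule. CPM values were scaled over all 28 libraries. RPKM values used the exon length of GENCODE M21, and the longest transcript as an alternative. The 95% intervals are those of the fit.

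The 10 genes, the pathway lists and the cell type markers were chosen with earlier results of these data known. The counts of each comparison cover all of the 10 genes that could be tested, and values are printed for some of them. From each pathway list up to 4 genes past the threshold were named, or the 1 with the smallest p, and outside the lists the 5 genes most like the set in liver. Identifiers matched the gene name table with their version for 53229 genes and without it for 1180, and 37 did not match. The lowest median correlation of a library with its group was 0.955, and no pair of a group agreed within sampling noise (mean chi-square per gene of at least 7.23 over genes with 50 or more counts in the pair, where sampling noise alone gives 1). Replicates are mice numbered in the labels. Same-numbered liver and kidney libraries of water mice deviated together (r of deviations from the group means 0.127 to 0.352 at 1340 and 0.113 to 0.284 at 2680 mg/kg/d). These numbers were taken as pairing the samples, without a comparison with pairs of different numbers. The main tests between organs did not use this pairing, and a replicate block changed no call between the organs of water mice. In NMN mice r ran from -0.0111 to 0.242 at 1340 and from -0.033 to 0.0644 at 2680 mg/kg/d, so a pairing of their organs was less clear. Libraries of NMN and water mice shared only a number. Whether same-numbered organs came from 1 mouse is not given in the sources used here. Alternatives were DESeq2 1.42.0, other size factors, other filters, a stricter threshold, the replicate block and leaving out each library.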

Additional observations from a re-analysis of the deposited data

Results flagged for a closer look

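In kidney at 1340 mg/kg/d, NMN replicate 3 stood far above the other 3 NMN mice in 3 lipogenesis genes: Thrsp (16.8 CPM, the next mouse at 3.89), Fasn (172 CPM, the next at 64.5) and Acaca (27.0 CPM). Its adipocyte markers summed to 227.7 CPM, compared to 62.9 to 97.6 CPM in the rest of its group. The part of the markers in these values was not tested. Acaca was also far from the group in water replicate 1 of the same kidneys (27.8 CPM) and in water replicate 4 of the livers at 1340 mg/kg/d (114 CPM). Pnpla3 in liver stood apart in NMN replicate 2 at 1340 mg/kg/d (0.163 CPM, 2 counts), where the other 3 mice had 0, so that any count would stand apart. Of 40 groups of values tested 6 had such a sample, that of Pnpla3 included, and chance gives about 1 in 20.

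At 2680 mg/kg/d the effect of NMN differed between liver and kidney by the test of the difference for Thrsp (-3.91 on the log2 scale), Acacb (-2.41), Fasn (-2.15) and Scd1 (-1.66). None of the 4 was called in kidney alone, with log2 fold changes of 0.34, 0.23, 0.24 and 0.31.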

How the results depend on the processing

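Of 573 values of single lipogenesis genes under alternatives that kept all libraries, 543 had the same direction and call, 25 gained a call, 1 lost it and 4 reversed, all 4 of Pnpla3. The cause was not tested for those that changed. At 1340 mg/kg/d in liver, 0 genes became 6 with an unadjusted p, 3 with DESeq2 and 1 (Srebf1) without a filter on low counts. At 2680 mg/kg/d, 7 became 3 with an adjusted p under 0.01 and a fold over 2. In kidney at 2680 mg/kg/d, 0 became 1 (Srebf1, adjusted p = 0.0247) without the filter. The schedule difference called 0 genes, 1 in liver with DESeq2 and 2 in kidney (Thrsp and Fasn) without the filter. The organ difference at 2680 mg/kg/d called 4 genes and 7 without the filter. Between the water livers of the schedules 1 gene became 2 (Acly added) with DESeq2, and 2 without the filter. Pnpla3 had an organ difference of 0.0141 at 2680 mg/kg/d, which was -0.00193 with DESeq2, -0.000372 with DESeq2 size factors, -0.00235 without the filter and -0.0251 with the replicate block.

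Samples of NMN and water shared only a number (same-number correlations not all over 0.1). The replicate block gave 1 gene in liver at 1340 mg/kg/d (Thrsp, adjusted p = 0.00233) and 8 at 2680 (with Me1), 5 for the organ difference at 2680 (without Fasn, adjusted p = 0.119, and with Acly and Elovl6), and 2 in liver and 8 in kidney for water mice between schedules. It changed no other count.

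Leaving out 1 library at a time gave 0 to 1 genes in liver at 1340 mg/kg/d (Srebf1 without NMN replicate 4, adjusted p = 0.0240), 5 to 7 at 2680, 2 to 5 for the organ difference at 2680 (2 without liver water 1, liver NMN 1, kidney water 1 or 2, or kidney NMN 2 or 3), 0 to 2 in liver and 5 to 8 in kidney for water mice between schedules, and 9 to 10 between organs at 2680. The other counts did not move. Log2 values that were not called changed sign. In kidney at 1340 mg/kg/d they ran from -0.0327 to 0.20 (Acly), -0.41 to 0.0643 (Acaca), -0.17 to 0.10 (Elovl6) and -1.13 to 0.0928 (Pnpla3). In kidney at 2680 they ran from -0.0939 to 0.60 (Thrsp), -0.18 to 0.47 (Fasn), -0.22 to 0.26 (Acly), -0.26 to 0.38 (Acaca), -0.0251 to 0.60 (Scd1) and -0.0378 to 0.63 (Elovl6). Schedule differences ran in liver from -0.34 to 0.16 (Srebf1) and -0.33 to 0.0923 (Acaca), and in kidney from -0.13 to 0.36 (Srebf1), -0.28 to 0.20 (Acly), -0.12 to 0.54 (Acaca), -0.0555 to 0.22 (Acacb), -0.0291 to 0.64 (Elovl6) and -0.75 to 0.61 (Pnpla3). Organ differences ran from -0.14 to 0.11 (Me1, 1340) and -1.996 to 0.57 (Pnpla3, 2680). Between water mice they ran in liver from -0.43 to 0.00911 (Thrsp) and -0.0908 to 0.30 (Elovl6), and in kidney from -0.22 to 0.26 (Srebf1) and -0.03496 to 0.12 (Me1).

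Over all genes tested, NMN calls in liver at 1340 mg/kg/d went from 2 to 74 with DESeq2, 44 without the filter, 16 with the block and 854 with an unadjusted p. With 1 library left out, these NMN calls ran from 0 to 18 (without NMN replicate 4). At 2680 they went from 883 to 1448, 1785 without the filter and 135 under the stricter threshold, and ran from 211 (without water replicate 2) to 1308 (without NMN replicate 2). In kidney they went from 18 to 159, 269 and 75 (block) at 1340, and from 61 to 236, 514 and 92 at 2680. With 1 library left out, the kidney calls ran from 5 to 67 at 1340 and from 3 to 191 at 2680. Schedule differences went from 10 to 99 and 71 in liver, and from 1 to 10, 106 and 0 (at least 10 counts) in kidney. Organ differences went from 0 to 26, 9 and 5 at 1340, and from 419 to 1232, 1307 and 247 at 2680. With 1 library left out, organ differences ran from 0 to 9 at 1340 and from 118 to 1347 at 2680. Schedule differences in liver then ran from 7 to 25. With at least 10 counts in every library, 10916 calls between organs at 2680 became 7062, and 723 calls between water livers became 387 (1189 with DESeq2). Per length of the longest transcript, 31 of 80 levels moved by over 1 SD, and 21 changed rank within their group, 0 in water livers, 2 in NMN livers of each schedule, and, at 1340 and 2680 mg/kg/d, 2 and 5 in water kidneys and 3 and 7 in NMN kidneys. Pnpla3 had at most 11 counts in a liver library.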
